A study of Mus musculus with 6 samples.

Results

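The BH3-only genes of the BCL2 family were examined in cultured 4T1 tumour cells, which derive from a mammary carcinoma of the mouse, after a treatment meant to combine photothermal and photodynamic killing. The 7 genes Bid, Bad, Bik, Bmf, Bcl2l11, Bbc3 and Pmaip1 were chosen by their symbols, out of 56748 gene identifiers in the deposited tables, and each symbol belonged to 1 identifier. The treated group (3 samples) had grown for 24 h, then received Au/MoS2/Bi2S3 particles at 125 µg/mL overnight, 8 min of near-infrared (NIR) light, and 24 h more in culture. The control group (3 samples) is labelled only as control. Both groups are labelled WT and were collected for 48 h, and all 6 samples carry the same batch label. Cells given particles without light, or light without particles, were not analysed here, so an effect of either alone cannot be told apart from that of the combination. Pooling of RNA from 3 individuals is mentioned in the design text, with no word on whether the samples of 1 group were separate cultures. Their spread, which is all that the p-values can weigh, may thus be technical.

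BH3-only proteins are the sensors of the mitochondrial pathway of apoptosis. Each carries a short helix, the BH3 domain, that fits a groove on other BCL2 proteins. Some, the activators, can bind and open the pore formers BAX and BAK, and others, the sensitizers, occupy guardians such as BCL2, BCL-XL and MCL1 and so free the activators. Many are held inactive in the healthy cell by low transcription, by tethering to the cytoskeleton or by phosphorylation, so a transcript level is only 1 of the layers that set their activity.

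The core of the BH3 domain is given here as its coding bases, because it is the feature that defines these genes and that their partners recognise. The sequences are read from GENCODE M21 transcripts (build GRCm38), 5′ to 3′ on the coding strand. Capitals mark the codon of the conserved leucine and the 2 codons of the small residue and the aspartate that follow it.
Bid: CTCgcccaaataGGCGATgagatggac
Bik: CTGgcctgcatcGGCGATgagatggac
Bcl2l11: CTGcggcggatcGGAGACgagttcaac
Bbc3: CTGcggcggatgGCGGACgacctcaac
Bad: CTCcgaaggatgAGCGATgagtttgag
Bmf: CTTcagtgtattGCAGACcagttccat

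The closest pairs were Bid with Bik and Bcl2l11 with Bbc3, each identical at 22 of 27 bases. The most distant pair was Bid and Bmf, at 11 of 27 bases. The core lies at chr6:120897289-120897315 (minus strand) in Bid, chr15:83543084-83543110 (plus) in Bik and chr2:128147150-128147176 (plus) in Bcl2l11. It lies at chr7:16313773-16313799 (plus) in Bbc3, chr19:6950792-6950818 (plus) in Bad and chr2:118545100-118545126 (minus) in Bmf. The core is in exon 4 of Bid and Bmf and in exon 3 of the other 4 genes, counted in the transcript used. In Pmaip1, on chromosome 18, the same pattern occurs at 2 places, in exons 2 and 3. Not every annotated coding transcript holds the core. It is present in 1 of 3 for Bbc3, 2 of 3 for Bid and 4 of 5 for Bcl2l11, and in every coding transcript of the other genes. The deposited values are per gene, so transcripts with and without the core are summed in what follows.

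The BH3-only genes did not move together. Bmf and Bid rose in treated cells, Bbc3 and Pmaip1 fell, Bcl2l11 and Bad were not called, and Bik was too scarce for the test. In bulk samples such as these, fewer cells of a type and less RNA per cell cannot be told apart. Values are FPKM as the authors deposited them, that is, fragments per kilobase of transcript. Their scale evens out the typical gene level across libraries, and differs from one set by the reads of each library alone. The test was limma on log2(FPKM + 1) over the 11118 genes that reached 1 FPKM in 3 libraries or more, with a call at a Benjamini-Hochberg adjusted p under 0.05. By this test 56.1% of all genes were called, 27.9% higher (3099 genes) and 28.3% lower (3141 genes), a split of 6032 and 1149 where libraries were scaled by their reads alone. Of the 6 BH3-only genes that passed the filter, 2 were called higher and 2 lower, which is to be read against those shares. Bmf passed the filter only through its treated libraries, and Bid through its treated libraries and 1 control, so their places among the tested genes depend on the level in treated cells. Over all tested genes, every treated sample lay above every control in 33.6% and below every control in 34.1%, 67.7% together, and among the 6 tested BH3-only genes in 2 and 2.

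**Figure D1:**
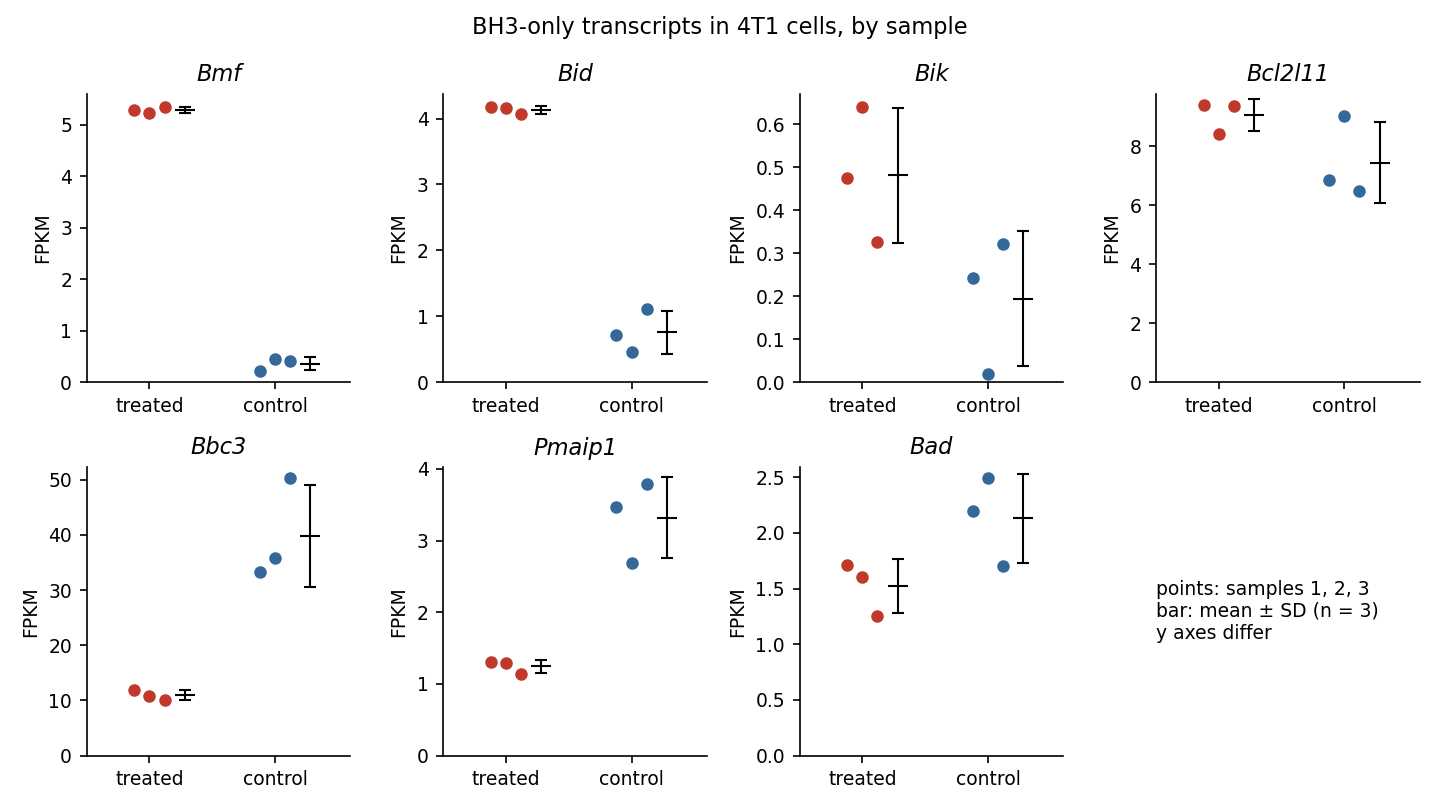
FPKM of each BH3-only gene (y axes differ and start at 0) in the 3 treated and 3 control samples, with the mean and SD beside the points. Treated samples lie above every control for Bmf and Bid and below every control for Bbc3 and Pmaip1, and the groups overlap for Bcl2l11 and Bad.

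Among the activators, Bid gave the clearest rise. Its protein is cut by caspase-8 and then carries the death receptor signal to mitochondria. Bid (chromosome 6, 120891930 to 120916853, minus strand) stood at 4.17, 4.16 and 4.07 FPKM in treated 1, 2 and 3, against 0.711, 0.462 and 1.11 FPKM in control 1, 2 and 3. The treated values lay within a narrow band and the groups did not overlap. The mean was 4.14 ± 0.0580 FPKM in treated and 0.760 ± 0.325 FPKM in control cells (SD, n = 3 each), a 5.44-fold difference. The log2 fold change was 1.56 ± 0.15 SE, with a 95% confidence interval from 1.20 to 1.92 (limma adjusted p = 0.000531). The values rest on 666, 653 and 639 reads in treated libraries and 79, 52 and 92 in control libraries. On the opposite strand Bcl2l13 overlaps 628 exon bases of Bid, 17.7% of its exons, and the strand setting of the counting is not given in the sources used here. Bcl2l13 itself was at 5.46, 5.59 and 5.89 FPKM in treated cells, against 7.18, 7.41 and 9.65 FPKM in controls. It was called lower (-0.44, limma adjusted p = 0.0309), a call lost under 6 of 17 alternatives, and stood at 0.21 with library size scaling.

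Bcl2l11, which encodes BIM, an activator that binds all guardians, was the second most abundant BH3-only transcript in both groups. Bcl2l11 (chromosome 2, 128126038 to 128162547) stood at 9.41, 8.43 and 9.35 FPKM in treated 1, 2 and 3, and at 6.85, 9.01 and 6.48 FPKM in control 1, 2 and 3. The groups overlapped, since control 2 lay above treated 2. The log2 fold change was 0.26 ± 0.14 SE, with an interval from -0.08 to 0.61 (limma adjusted p = 0.160). The interval reaches from a slight fall to a rise of 0.61, so the data do not show that the level was the same. Without control 2 the gene was called higher (0.39, limma adjusted p = 0.0176).

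Bbc3, which encodes PUMA, a p53 target in many tissues that engages all guardians, was the most abundant BH3-only transcript and fell. Bbc3 (chromosome 7, 16308393 to 16318205) stood at 11.9, 10.9 and 10.2 FPKM in treated 1, 2 and 3, against 33.3, 35.9 and 50.3 FPKM in control 1, 2 and 3. All treated values lay below all control values, and control 3 was the highest. The mean was 10.99 ± 0.898 FPKM in treated and 39.8 ± 9.18 FPKM in control cells (SD, n = 3 each), 3.62-fold lower. The highest treated sample was still 2.79-fold below the lowest control. The log2 fold change was -1.75 ± 0.18 SE, with an interval from -2.18 to -1.32 (limma adjusted p = 0.000652). The Bbc3 transcripts hold 67.1% G and C, a share above that of 98.7% of the tested genes. With the trend for GC content and length removed from each library the log2 fold change was -0.89, and -0.61 with level added, both still called (limma adjusted p = 0.00538 and 0.0303) and both smaller than those of Pmaip1 under the same settings.

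Among the sensitizers, Bmf rose the most of the 7 genes. Its protein is held on the actin motor complex of the cell until the cell detaches or is stressed. Bmf (chromosome 2, 118528757 to 118549687, minus strand) stood at 5.29, 5.23 and 5.35 FPKM in treated 1, 2 and 3, against 0.225, 0.456 and 0.406 FPKM in control 1, 2 and 3. Every control was below 1 FPKM, and the lowest treated sample was 11.5-fold above the highest control. The reads numbered 1249, 1214 and 1244 in treated libraries and 37, 76 and 50 in control libraries. The means differed by 14.6-fold and the log2 fold change was 2.21 ± 0.10 SE (95% interval 1.96 to 2.46, limma adjusted p = 0.000136). Adding 1 to each FPKM compresses such a low control level. With 0.1 added in place of 1 the log2 fold change of Bmf was 3.58, that of Bid 2.37 and that of Pmaip1 -1.33. Other settings gave smaller rises. Bmf stood at 1.94 and Bid at 1.29 with quantile normalization. They stood at 1.87 and 1.18 with the GC, length and level trend removed.

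Pmaip1, which encodes NOXA, a sensitizer that targets MCL1, fell. Pmaip1 (chromosome 18, 66458533 to 66465565) stood at 1.30, 1.29 and 1.14 FPKM in treated 1, 2 and 3, against 3.47, 2.69 and 3.80 FPKM in control 1, 2 and 3. The groups did not overlap. The mean was 1.25 ± 0.0902 FPKM in treated and 3.32 ± 0.569 FPKM in control cells (SD, n = 3 each), 2.67-fold lower. The log2 fold change was -0.94 ± 0.13 SE, with an interval from -1.24 to -0.63 (limma adjusted p = 0.00159). Pmaip1 has few reads, between 138 and 160 in treated and between 233 and 297 in control libraries. Its transcripts hold 41.6% G and C, near the low end of the tested genes, where Bbc3 is near the high end. With the trend for GC content and length removed Pmaip1 stood at -1.07, and at -1.39 with level added.

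Bad, whose protein is held in the cytosol by growth factor kinases, was not called. Bad (chromosome 19, 6941861 to 6951899) stood at 1.71, 1.601 and 1.25 FPKM in treated 1, 2 and 3, and at 2.20, 2.49 and 1.70 FPKM in control 1, 2 and 3. Treated 1 lay just above control 3. The log2 fold change was -0.31 ± 0.14 SE, with an interval from -0.64 to 0.02 (limma adjusted p = 0.0961). Without control 3 it was called lower (-0.41, limma adjusted p = 0.0204), as with quantile normalization (-0.63, 0.00657), and it stood at 0.17 with library size scaling and at 0.071 after removal of the GC and length trend, not called in either. Gpr137 on the opposite strand overlaps 524 exon bases of Bad, 20.5% of its exons, and had 6.03, 5.98 and 5.398 FPKM in treated and 6.13, 6.66 and 5.78 FPKM in control samples.

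Bik, whose protein acts at the endoplasmic reticulum, was below 1 FPKM in every library. Bik (chromosome 15, 83526862 to 83544634) stood at 0.476, 0.640 and 0.327 FPKM in treated 1, 2 and 3, on 34, 45 and 23 reads, against 0.241, 0.0198 and 0.322 FPKM in control 1, 2 and 3, on 12, 1 and 12 reads. The lowest treated value and the highest control value were almost equal. With no filter on low values its log2 fold change was 0.31, with an interval from -0.01 to 0.64 (limma adjusted p = 0.157, where 24.5% of 27756 genes were called). Adding 1 compresses levels this low, and no other fit of Bik was made.

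**Figure D2:**
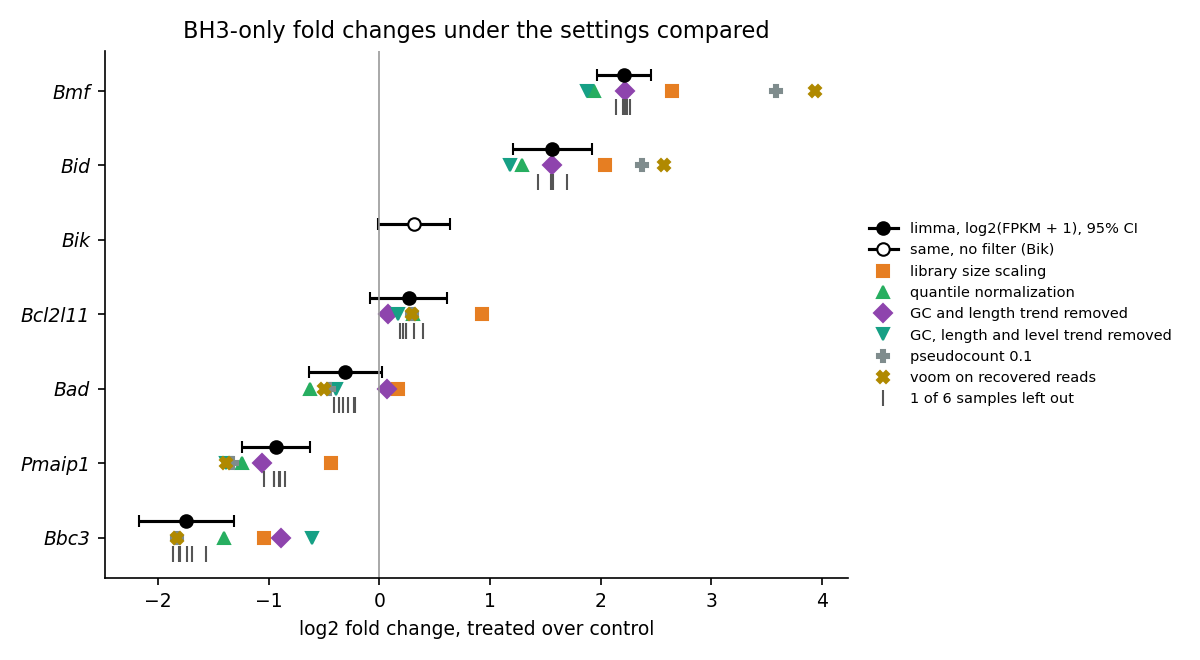
Log2 fold change, treated over control, of each BH3-only gene (rows), with limma's 95% confidence interval for log2(FPKM + 1) (black, open for Bik, which was fitted with no filter), the values under 6 other settings (coloured) and those with 1 sample left out (ticks). Bmf and Bid lie right of 0 and Pmaip1 and Bbc3 left of 0 under every setting drawn, while Bad lies on both sides.

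The direction and the call of Bmf and Bbc3 held under all 17 alternatives, and those of Bid and Pmaip1 under all 16 in which they could be tested. Their sizes depended on how the libraries were scaled. The filter was not applied again when a sample was left out. Bmf reached 1 FPKM only in its 3 treated libraries, so it would not have passed with 1 of them left out. The authors' values hold the typical gene level between groups, with a median log2 fold change of -0.01 over all tested genes. Scaled by the recovered reads of each library alone, that median was 0.60, and single genes are then read against it. Under that scaling Bmf stood at 2.64, Bid at 2.04, Bcl2l11 at 0.93 (called, limma adjusted p = 0.00352), Pmaip1 at -0.44 and Bbc3 at -1.04.

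The make-up of the BH3-only pool differed between the groups. Bbc3 held 34.8%, 33.7% and 32.1% of the summed FPKM of the 7 genes in treated 1, 2 and 3, against 70.8%, 70.3% and 78.5% in control 1, 2 and 3. Bcl2l11 held between 26.2% and 29.5% in treated and between 10.1% and 17.7% in control samples. Bmf held between 15.4% and 16.9% in treated samples, against less than 1% in each control (0.479% to 0.894%), and Bid between 12.2% and 12.9%, against 0.905% to 1.72%. These shares do not depend on a single scaling factor per library. They can depend on trends with GC content, length and level, and were not computed with those removed. The log2 fold change of Bbc3 was -0.89 with the GC and length trend removed and -0.61 with level added, against -1.75. The sum of the 7 genes does depend on the scaling between libraries. It was 34.3, 32.2 and 31.7 FPKM in treated samples, against 47.0, 51.0 and 64.1 FPKM in controls. Scaled by recovered reads alone it ranged from 42.2 to 45.7 in treated samples and from 38.6 to 46.1 in controls, where the groups overlapped.

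**Figure D3:**
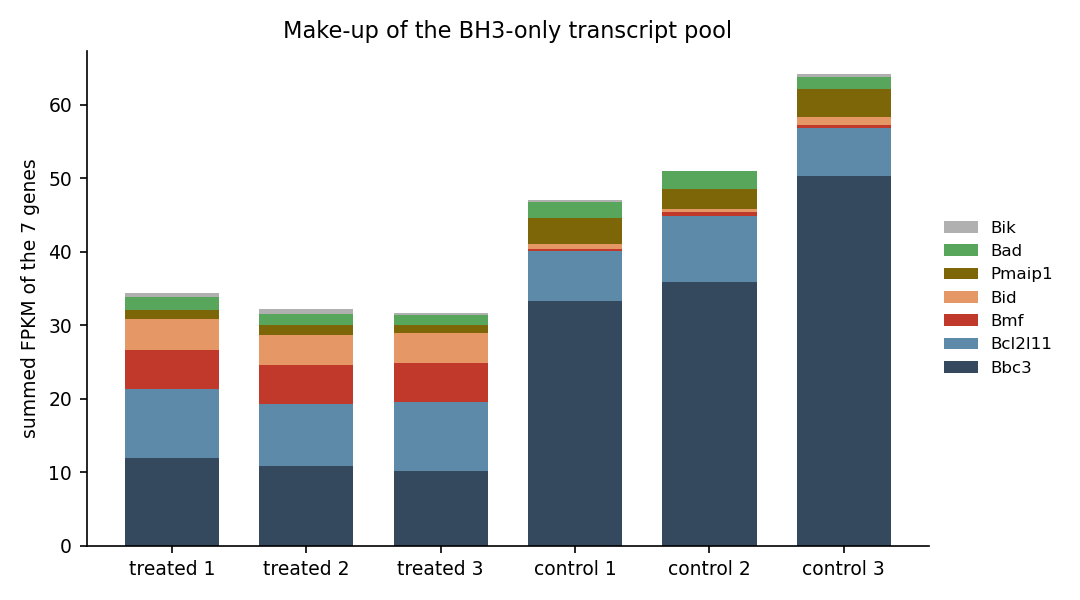
Summed FPKM of the 7 BH3-only genes (y axis, from 0) in each treated and control sample, split by gene. Bbc3 makes up between 32.1% and 34.8% of the bar in treated samples and between 70.3% and 78.5% in controls, and the Bmf and Bid segments are visible mainly in treated samples.

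The order of the levels also differed. FPKM is per length, but levels of different genes can also depend on GC content, the authors' annotation and overlapping genes. The order was not corrected for these. In every treated sample the order was Bbc3, Bcl2l11, Bmf, Bid, Bad, Pmaip1 and Bik, from high to low. In controls Bbc3 and Bcl2l11 also led, followed by Pmaip1, Bad and Bid, with Bmf and Bik last. The neighbours whose ranges overlapped were Bad and Pmaip1 in treated samples and Bmf and Bik in controls. All other neighbours in the order were apart in all samples of the group, Bid and Bmf in controls only just, at 0.462 FPKM for the lowest Bid and 0.456 FPKM for the highest Bmf.

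The genes whose log2(FPKM + 1) followed a BH3-only gene most closely over the 6 samples are given as a description, since 2 groups that differ make many such matches. They were Zeb2 for Bmf (Pearson r = 0.9998), Mylip for Bid (0.9997), Mad2l1bp for Pmaip1 (0.9990) and Tnc for Bbc3 (0.9988). The closest to Bad was Gm9821 (0.9954) and to Bcl2l11 Zfp53 (0.9909). An r of 0.99 or more with Bmf was reached by 430 genes, with Pmaip1 by 281, with Bbc3 by 225 and with Bid by 196, but with Bad and Bcl2l11 by 1 gene each.

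The multidomain BCL2 proteins are what BH3-only proteins act on. Of 11 listed genes 6 were tested, of which 0 were higher and 2 lower, beside 27.9% and 28.3% of all tested genes. The median log2 fold change was -0.29, against -0.01 over all tested genes. Under library size scaling 3 were higher and 0 lower, beside 6032 and 1149 of all 11118 tested genes. Bcl2l2, the guardian BCL-W, had 8.69, 8.94 and 8.03 FPKM in treated, against 18.04, 16.5 and 16.8 FPKM in control samples. It fell by 0.92 on the log2 scale, with an SE of 0.10 (limma adjusted p = 0.000795). It was not called with library size scaling (-0.23, limma adjusted p = 0.116). Bok, a pore former of the BAX type, had 14.8, 13.5 and 12.7 FPKM in treated, against 37.2, 20.2 and 80.0 FPKM in control samples. Its fall (-1.46, limma adjusted p = 0.0352) was lost under 9 alternatives, among them without treated 1, 2 or 3 or control 1 (limma adjusted p between 0.0838 and 0.0985) and with library size scaling (-0.75, limma adjusted p = 0.149).

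The main guardians and the 2 pore formers were not called on the deposited scale. With library size scaling Bcl2l1 (0.45, limma adjusted p = 0.0259), Bax (0.53, 0.0103) and Bak1 (1.26, 0.0384) were called higher, beside a median of 0.60 over all genes, and Mcl1 was not (0.40, 0.292). Bax was also called higher with the GC and length trend removed (0.39, limma adjusted p = 0.0253) and with level added (0.67, 0.00392), and Bak1 without control 2 (0.98, 0.0101). Mcl1 averaged 71.4 ± 3.33 FPKM in treated and 99.1 ± 52.0 FPKM in control cells (SD, n = 3 each). Bcl2l1, which encodes BCL-XL, averaged 12.5 ± 0.0690 FPKM in treated and 15.3 ± 3.97 FPKM in control cells. The control values of Mcl1 ran from 55.1 to 156 FPKM and enclosed all treated values, and the interval of its log2 fold change ran from -1.21 to 0.54. Bax averaged 27.7 ± 3.40 FPKM in treated and 31.7 ± 3.55 FPKM in control cells, and Bak1 27.6 ± 1.14 FPKM and 20.7 ± 12.2 FPKM. Bcl2 stayed below 1 FPKM in all samples the 3 listed Bcl2a1 genes were at 0 in all of them, and Bcl2l10 did not pass 0.0915 FPKM in any.

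Other proteins with a BH3 or related motif were counted from a list of 12, of which 7 were tested, 2 were higher and 2 lower (median -0.06), beside 27.9% and 28.3% of all tested genes. With library size scaling 3 were higher and 0 lower, beside 6032 and 1149 of all 11118 tested genes. Bnip3, a mitophagy receptor induced by hypoxia, rose to 17.8, 21.4 and 19.4 FPKM in treated 1, 2 and 3, against 8.01, 6.59 and 8.35 FPKM in control 1, 2 and 3 (log2 fold change 1.25 ± 0.13 SE, limma adjusted p = 0.000705). Bnip3l, its relative, was lower at 42.8 ± 1.95 FPKM in treated, against 61.8 ± 10.3 FPKM in control cells (-0.51, limma adjusted p = 0.0303). That fall was lost under 9 alternatives, and Bnip3l stood at 0.23 with library size scaling and 0.22 with quantile normalization. Hrk, the BH3-only gene of neurons, had between 2 and 6 reads in treated libraries and 0, 1 and 0 in controls.

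**Figure D4:**
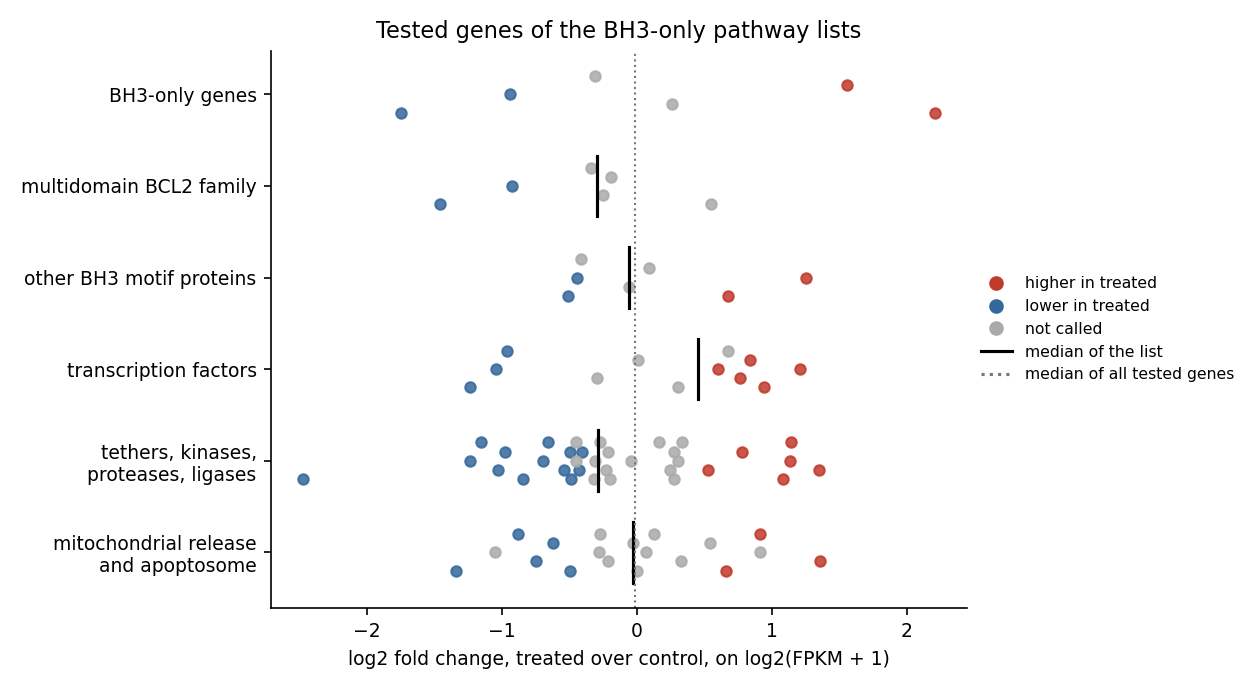
Log2 fold change on log2(FPKM + 1), treated over control, of the tested genes of each list (rows), coloured by call, with the median of each list except the BH3-only genes (black) and of all tested genes (dotted). Called genes lie on both sides of 0 in every list but the multidomain BCL2 family, where 2 genes are lower and 0 higher (0 lower and 3 higher with library size scaling, not drawn).

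Factors that can switch on BH3-only genes were mixed. Of 15 listed genes 12 were tested, 5 were higher and 3 lower (median 0.46), against the same 27.9% and 28.3% of all tested genes. With library size scaling 7 were higher and 1 lower, beside 6032 and 1149 of all 11118 tested genes. Smad3, the signal transducer of TGF-beta, rose to 12.5 ± 0.234 FPKM in treated cells, against 6.04 ± 0.615 FPKM in controls (log2 fold change 0.94 ± 0.11 SE, limma adjusted p = 0.000929). Jun, an AP-1 subunit, fell to 22.9 ± 0.991 FPKM, against 55.9 ± 9.24 FPKM in controls (-1.24 ± 0.15 SE, limma adjusted p = 0.00102), and stood at -0.51 with library size scaling. Trp53, which encodes p53, had 34.3, 32.9 and 36.0 FPKM in treated and 20.7, 33.4 and 13.5 FPKM in control samples. The log2 fold change of Trp53 was 0.68 (limma adjusted p = 0.101) and control 2 lay within the treated range. Bbc3 and Pmaip1, which p53 can switch on in other settings, fell. Whether p53 acts on either gene in these cells was not tested. Foxo1, a FOXO factor that activates Bcl2l11 and Bbc3 in other settings, had 1.49, 1.51 and 1.69 FPKM in treated, against 0.369, 0.495 and 0.665 FPKM in control samples. The rise of Foxo1 (0.77, limma adjusted p = 0.00163) was lost with quantile normalization (0.38, limma adjusted p = 0.0567) and after removal of a trend for level besides GC content and length (0.21, limma adjusted p = 0.165). Foxo1, like Bmf, passed the filter only through its treated libraries.

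Promoter letters are shown for the FOXO core because it stands in the windows of both Bcl2l11 and Bbc3. Windows of 300 bases, 250 before and 50 after each RefSeq start site (GRCm38.p6), were found for 5 of the 7 genes, namely Bid, Bad, Bmf, Bcl2l11 and Bbc3, 11 windows in all. The core GTAAACA, searched on both strands, occurred in 1 window each of Bcl2l11 and Bbc3, and in 3.65% of all 32851 windows. Capitals mark the core, which in Bbc3 reads on the opposite strand.
Bcl2l11: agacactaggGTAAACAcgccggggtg
Bbc3: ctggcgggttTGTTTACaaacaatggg

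The first lies at chr2:128125801-128125827 (plus strand) and the second at chr7:16310084-16310110 (plus strand). The GC box GGGCGG was found in 8 of the 11 windows, at least 1 for each of the 5 genes, and in 35.7% of all windows. The E box CACGTG was in 1 window of Bbc3 and in 7.15% of all. The antioxidant response element core TGACNNNGC and the cAMP response element TGACGTCA were in 0 of the 11 windows, and in 12.4% and 1.79% of all windows. All were searched on both strands, and 0 of the FOXO cores and E boxes shared bases with a GC box. A match describes these letters and is not a binding site.

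Tethers, kinases, proteases and ligases that act on BH3-only proteins were all tested, and of 34 genes 6 were higher and 13 lower (median -0.29), where 27.9% and 28.3% of all tested genes were. Pim1, a kinase that phosphorylates BAD, fell to 23.5 ± 1.31 FPKM in treated cells, against 56.7 ± 3.71 FPKM in controls (log2 fold change -1.23 ± 0.11 SE, limma adjusted p = 0.000455), and stood at -0.51 with library size scaling. Rps6ka3, another kinase that targets BAD, rose to 5.88 ± 0.249 FPKM, against 2.25 ± 0.362 FPKM in controls (1.09 ± 0.12 SE, limma adjusted p = 0.000808). Dynll2, the light chain that tethers BMF, had 63.2, 67.4 and 62.2 FPKM in treated 1, 2 and 3, against 119, 108 and 180 FPKM in control 1, 2 and 3 (-1.03, limma adjusted p = 0.00738). Its call was lost with library size scaling (limma adjusted p = 0.160), quantile normalization (0.547) and removal of the GC, length and level trend (0.269). The split of this list turned with the scaling, with 17 higher and 2 lower under library size scaling, and 11 higher and 5 lower with quantile normalization. Of all 11118 tested genes, 6032 were higher and 1149 lower under library size scaling, and 3026 and 2725 with quantile normalization. With a replicate left out the number lower in this list ran from 6 to 17, beside 2140 to 3778 of all genes. It was 7 with the replicate number as a block, beside 2669 of all genes.

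Genes of mitochondrial release and the apoptosome, the steps after BH3-only action, numbered 20, of which 19 were tested, 3 higher and 5 lower (median -0.03), next to 27.9% and 28.3% of all tested genes. Birc3, an inhibitor of apoptosis protein, rose to 2.19, 1.91 and 2.33 FPKM in treated 1, 2 and 3, against 0.211, 0.321 and 0.153 FPKM in control 1, 2 and 3 (log2 fold change 1.35 ± 0.10 SE, limma adjusted p = 0.000295). Birc3, like Bmf, passed the filter only through its treated libraries. Vdac1, the main channel of the outer mitochondrial membrane, fell to 165 ± 6.54 FPKM, against 420.4 ± 12.5 FPKM in controls (-1.34 ± 0.12 SE, limma adjusted p = 0.000459). It stood at -0.25 with quantile normalization (limma adjusted p = 0.125). With library size scaling this list had 11 higher and 1 lower, beside 6032 and 1149 of all 11118 tested genes.

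The libraries had between 33.2 and 33.8 M reads at genes in treated and between 32.6 and 38.1 M in control samples (M, 1e6), worked back from the deposited values. The 100 most abundant genes held 19.0% to 19.4% of these reads in treated and 33.05% to 36.1% in control libraries, and mitochondrially encoded mRNAs 1.21% to 1.32% in treated and 0.00902% to 0.701% in control libraries. Genes above 0 FPKM numbered 22088, 21821 and 22047 in treated 1, 2 and 3, against 18115, 18988 and 15829 in control 1, 2 and 3. The part of these differences in the BH3-only results was not tested. Of 6 epithelial markers, 3 were tested and these 3 were called lower on the deposited scale, where 28.3% of all tested genes were. Krt7, Cdh1 and Cldn4 were below 1 FPKM in all samples. Cdh1 lay between 0.0593 and 0.0989 FPKM in treated samples and between 0 and 0.0699 in controls. Krt18 averaged 286 ± 12.5 FPKM in treated and 861 ± 109 FPKM in control cells (limma adjusted p = 0.000582), and Krt8 351 ± 7.45 FPKM in treated and 480 ± 12.6 FPKM in control cells (0.0230). Epcam, which passed the filter only through its control libraries, had 0.760, 0.959 and 0.968 FPKM in treated, against 4.43, 4.81 and 5.74 FPKM in control samples. The summed level of the 6 markers was 617 to 651 FPKM in treated and 1238 to 1472 FPKM in control samples. With library size scaling it was 822 to 867 in treated and 1040 to 1092 in control samples, and Krt8 was then higher in treated samples, at 459 to 479, against 354 to 402 in controls. The 9 leukocyte and 3 adipocyte markers were below 1 FPKM throughout, as were 3 of 4 endothelial markers. The sum of 5 fibroblast markers, nearly all of it Col1a1, was 30.6 to 32.98 FPKM in treated, against 114 to 757 FPKM in control samples.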

How the data were processed

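RNA of 3 treated and 3 control samples of 4T1 cells was sequenced as paired 150 bp reads from poly-T selected RNA, per the labels' protocols. The authors deposited 1 FPKM value per gene and sample, per the file headers. The aligner, counter, build, annotation and strand setting behind them were not given in the sources used here. Symbols (found for 52125 of 56748 identifiers), lengths, GC content and coordinates were taken from GENCODE M21 (GRCm38), and the authors' own annotation may differ.

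Whole reads were worked back from the FPKM and exon lengths. Of values under 200 reads, between 92.5% and 93.4% were within 0.02 of a whole number, as were all 42 values of the BH3-only genes. Mates of a pair may count as separate reads, and the reads bear on counting error only. The deposited values had been scaled between libraries, with equal median-of-ratios factors of 1.01.

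Genes were fitted on log2(FPKM + 1) by limma 3.58.1 (R 4.3.3) with its trend option, group as the only term, and adjustment over all 11118 genes. The fit was also run on simulated data with few changed genes and the same spread in both groups. The real data differ in both respects, so that run does not show how the test performs on them. Replicate numbers were not used to pair the samples in the main fit. The genes named were fixed by rule: all 7 BH3-only genes, in each list the called gene with the smallest p in each direction, the measured multidomain BCL2 genes, Hrk, and the gene most like each BH3-only gene. Other genes named (Trp53, Foxo1, Foxo3, Foxo4, Dynll2 and the overlapping genes) were picked after their values were seen. The epithelial markers were rescaled by library size after the data were seen. The BH3-only genes and all lists were chosen with earlier results of these data known.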

Additional observations from a re-analysis of the deposited data

How the results depend on the processing

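Bmf, Bid, Bbc3 and Pmaip1 kept their direction and call under every alternative that could test them, with log2 fold changes between 1.87 and 3.93 for Bmf, 1.18 and 2.57 for Bid, -1.86 and -0.61 for Bbc3 and -1.39 and -0.44 for Pmaip1. Below, counts are of genes called, and for the values that moved the cause was not tested. With library size scaling 6032 of all genes were called higher and 1149 lower, against 3099 and 3141. Bad then stood at 0.17 and Bcl2l11 at 0.93 (called). The multidomain family then had 3 higher and 0 lower, other BH3 motif proteins 0 lower, the transcription factors 1 lower, the tethers and enzymes 17 higher and 2 lower, and the release genes 11 higher and 1 lower. With quantile normalization 3026 of all genes were called higher and 2725 lower. Bad was then at -0.63 (called), and the multidomain family and other BH3 motif proteins had 1 lower each. The tethers and enzymes then had 11 higher and 5 lower, and the release genes 5 higher and 1 lower. With the GC and length trend removed Bad was at 0.071, and the multidomain family had 1 higher and 1 lower, the same as with level added, where other BH3 motif proteins had 1 lower, the tethers and enzymes 6 lower and the release genes 3 lower. With no filter the multidomain family had 1 lower, other BH3 motif proteins 0 lower and the release genes 3 lower. A minimum of 5 FPKM left 1385 genes called higher, and of the BH3-only genes, where it tested fewer, 1 higher and 1 lower.

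With 1 replicate left out, the same 11118 genes were tested, with no new filter. Genes called higher ranged from 2279 to 3634 and lower from 2140 to 3778. BH3-only genes called ranged from 2 to 3 in each direction. Bid ranged from 1.44 to 1.70, Bmf from 2.14 to 2.26, Bbc3 from -1.86 to -1.57, Pmaip1 from -1.05 to -0.86, Bcl2l11 from 0.18 to 0.39 and Bad from -0.41 to -0.22. Called higher and lower ranged from 0 to 1 and 1 to 2 in the multidomain family, 1 to 2 and 0 to 2 in other BH3 motif proteins, 4 to 6 and 3 to 4 in the transcription factors, 5 to 9 and 6 to 17 in the tethers and enzymes, and 3 to 6 and 2 to 7 in the release genes.

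Samples with the same replicate number did not deviate together (r = -0.05, -0.11 and -0.14). With 3 samples per group such values cannot exclude a pairing, and the sample labels state none. With the replicate number as a block 2618 genes were called higher and 2669 lower, the calls of the BH3-only genes did not change, other BH3 motif proteins had 0 lower and the tethers and enzymes 7 lower. The 2 planned count models were not run, since the deposited values are FPKM, and a voom fit on recovered reads was chosen in their place after the data were seen. Few reads stand behind Bik and Hrk and behind the control levels of Bmf and Bid.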
